A study of Homo sapiens with 9 samples.

Results

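The E2F and DP transcription factors are the 10 genes E2F1 to E2F8, TFDP1 and TFDP2, and they were chosen by name from the array annotation. All 10 had a transcript cluster, the group of probes that stands for a gene on the Clariom S array, among the 17687 genes named on it. By textbook role they comprise 3 activator E2Fs (E2F1, E2F2 and E2F3), 5 repressor E2Fs (E2F4 to E2F8) and 2 DP partners. RNA was taken from PC9, an established lung adenocarcinoma line with an activating EGFR deletion. The cells had been transfected for 96 h with 15 nM of siALKBH5#1 or siALKBH5#3, siRNAs of different sequence against the RNA demethylase ALKBH5, or with siControl, a negative control siRNA that the study calls siNC. Each group held 3 arrays, all from this 1 cell line with a transient knockdown. The groups were compared to learn which RNAs change when ALKBH5 is depleted. The labels call the 3 arrays of a group biological replicates. How the cultures were separated is not stated, so the p-values speak only of the spread among these arrays.

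E2F proteins bind DNA at a shared GC-rich site, most of them as a pair with a DP protein, and control the genes that a cell needs to enter S phase. In early G1 the pocket proteins (RB1, RBL1 and RBL2) hold them silent. Phosphorylation of the pocket proteins by cyclin D and cyclin E kinases frees the activators, and later in S phase the atypical repressors shut the same genes down. Lung adenocarcinomas often carry lesions upstream of this switch, in the EGFR pathway or in the inhibitors of the cyclin D kinases.

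The knockdown and the cell identity were checked first. ALKBH5 gave intensities of 112, 96.7 and 113 with siALKBH5#1 and of 56.8, 30.04 and 34.8 with siALKBH5#3, against 2815, 3308 and 2361 with siControl. ALKBH5 was thus 26.2-fold lower with siALKBH5#1 and 71.8-fold lower with siALKBH5#3 (limma, adjusted p = 6.49e-07 and 4.23e-08), and it was also 2.74-fold lower with siALKBH5#3 than with siALKBH5#1 (adjusted p = 0.000487). Of 8 lung epithelial markers, 6 lay above the 50th percentile of the array in every group, led by KRT8, whereas NKX2-1 (percentiles 26.0 to 39.9) and NAPSA (percentiles 7.61 to 18.6) were dim. Of these 8, CDH1 and KRT7 were called lower with siALKBH5#1 (log2 fold changes of -0.76 and -0.40, adjusted p = 0.0233 and 0.0480) and 0 with siALKBH5#3 (limma; CDH1 was higher at an unadjusted p of 0.0428). The blood and fibroblast markers lay below the 50th percentile in every group. Among them the blood marker CD14 was called lower with siALKBH5#1 (limma, adjusted p = 0.0328). Of the 4 endothelial markers, 2 had a mean percentile above 50 with siControl, PECAM1 the highest at 54.9, and 0 with either ALKBH5 siRNA. Of these 4, 2 were called lower with siALKBH5#1 and 1 with siALKBH5#3. Over all 21448 clusters, 3.56% were called lower with siALKBH5#1 and 7.04% with siALKBH5#3, the background for each set of markers. The 4 summed to 199 to 230 with siALKBH5#1, 236 to 264 with siALKBH5#3 and 287 to 385 with siControl. The part of these marker differences in the results on the E2F genes was not tested. Median intensities of the 9 arrays lay between 102.67 and 105.175.

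Several E2F genes carry E2F sites in front of their own transcription start, so the promoters in which a site was found are shown, beside those of E2F7 and E2F4, in which none was found. In RefSeq (GRCh38.p14), 8 of the 10 members had at least 1 promoter window of 250 bases before to 50 bases after a start, 11 windows in all. E2F5 and E2F8 had no window and were not searched. The E2F site was searched as TTTCCCGC, TTTGGCGC, TTTCGCGC and TTTGCCGC on both strands. It was found in windows of 4 of these 8 members, E2F1, E2F2, E2F3 and TFDP1, and in 3.31% of all 35116 windows in the table. The last 130 bases before the start are printed 5′ to 3′ along the gene, with each match in capitals. They lie at chr20:33686386-33686515 on the minus strand (E2F1), chr1:23531234-23531363 on the minus strand (E2F2), chr6:20401749-20401878 on the plus strand (the upstream one of the E2F3 windows), chr13:113584623-113584752 on the plus strand (TFDP1), chr12:77065570-77065699 on the minus strand (E2F7) and chr16:67192025-67192154 on the plus strand (E2F4).
E2F1: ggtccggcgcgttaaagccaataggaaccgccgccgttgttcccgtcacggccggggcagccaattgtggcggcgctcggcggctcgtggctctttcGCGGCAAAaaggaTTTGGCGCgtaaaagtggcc
E2F2: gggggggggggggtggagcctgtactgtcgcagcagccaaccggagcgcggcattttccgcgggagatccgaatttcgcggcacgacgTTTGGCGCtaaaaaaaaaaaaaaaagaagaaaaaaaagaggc
E2F3: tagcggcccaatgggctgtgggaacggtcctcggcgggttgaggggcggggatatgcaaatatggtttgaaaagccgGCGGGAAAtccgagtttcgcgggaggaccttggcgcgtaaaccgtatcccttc
TFDP1: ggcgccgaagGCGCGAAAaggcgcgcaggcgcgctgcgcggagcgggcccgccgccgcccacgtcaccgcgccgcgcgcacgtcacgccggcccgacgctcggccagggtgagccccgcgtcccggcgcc
E2F7: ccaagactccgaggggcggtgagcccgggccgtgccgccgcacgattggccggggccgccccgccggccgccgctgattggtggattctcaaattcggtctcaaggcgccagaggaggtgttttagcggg
E2F4: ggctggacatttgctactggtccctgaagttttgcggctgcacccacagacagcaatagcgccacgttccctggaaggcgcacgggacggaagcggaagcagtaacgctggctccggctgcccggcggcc
E2F1 held 2 matches, one on each strand, at bases 33 to 26 and 20 to 13 before the start. The match of E2F2 lay at bases 42 to 35, that of E2F3 at bases 53 to 46 and that of TFDP1 at bases 120 to 113. The TFDP1 window used a start inside its gene interval, which begins at chr13:113584688, so part of its printed sequence lies within the gene. The CCAAT box (CCAAT, both strands) was found in windows of 4 members, with 3 matches in E2F1, 4 in E2F3, 4 in E2F7 and 2 in TFDP2, against 34.6% of all windows. The CHR element (TTTGAA or TTCGAA, both strands), a cell cycle motif, was found in windows of 2 members, E2F3 and TFDP2, against 16.4% of all windows. Members are counted as genes with a match in any of their windows, whereas the shares are of single windows, so these measures differ. A match is a run of letters and not a measured binding site.

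All 3 activator E2Fs were above siControl with both siRNAs, with E2F1 called for both and E2F2 and E2F3 called for siALKBH5#3 and not for siALKBH5#1. With siALKBH5#1, 1 of 10 members was called higher, against 4.51% of all 21448 clusters, and 0 were called lower, against 3.56% (limma, adjusted p under 0.05). With siALKBH5#3, 4 of 10 were called higher, against 8.72% of all clusters, and 0 lower, against 7.04%. At an unadjusted p under 0.05, 6 members were higher with siALKBH5#1, against 12.2% of all clusters, and 5 with siALKBH5#3, against 15.3%. In that count 0 members were lower with siALKBH5#1, against 11.0% of all clusters, and 0 with siALKBH5#3, against 14.2%. The methods' t-test at its threshold, in which p is under 0.01 and the fold above 1.5 or below 0.67, called 1 higher with siALKBH5#1 and 2 with siALKBH5#3, against 1.81% and 3.79% of all clusters, and 0 lower, against 1.34% and 2.62%. Both comparisons use the same siControl arrays, so their calls are not independent of each other. The study picked E2F1 from these arrays, so its direction on them is no independent evidence. Beyond the arrays, the study reports higher E2F1 by qPCR in knockdown PC9 cells. It also reports more N6-methyladenosine, the mark that ALKBH5 removes, in the E2F1 3′ UTR.

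**Figure D1:**
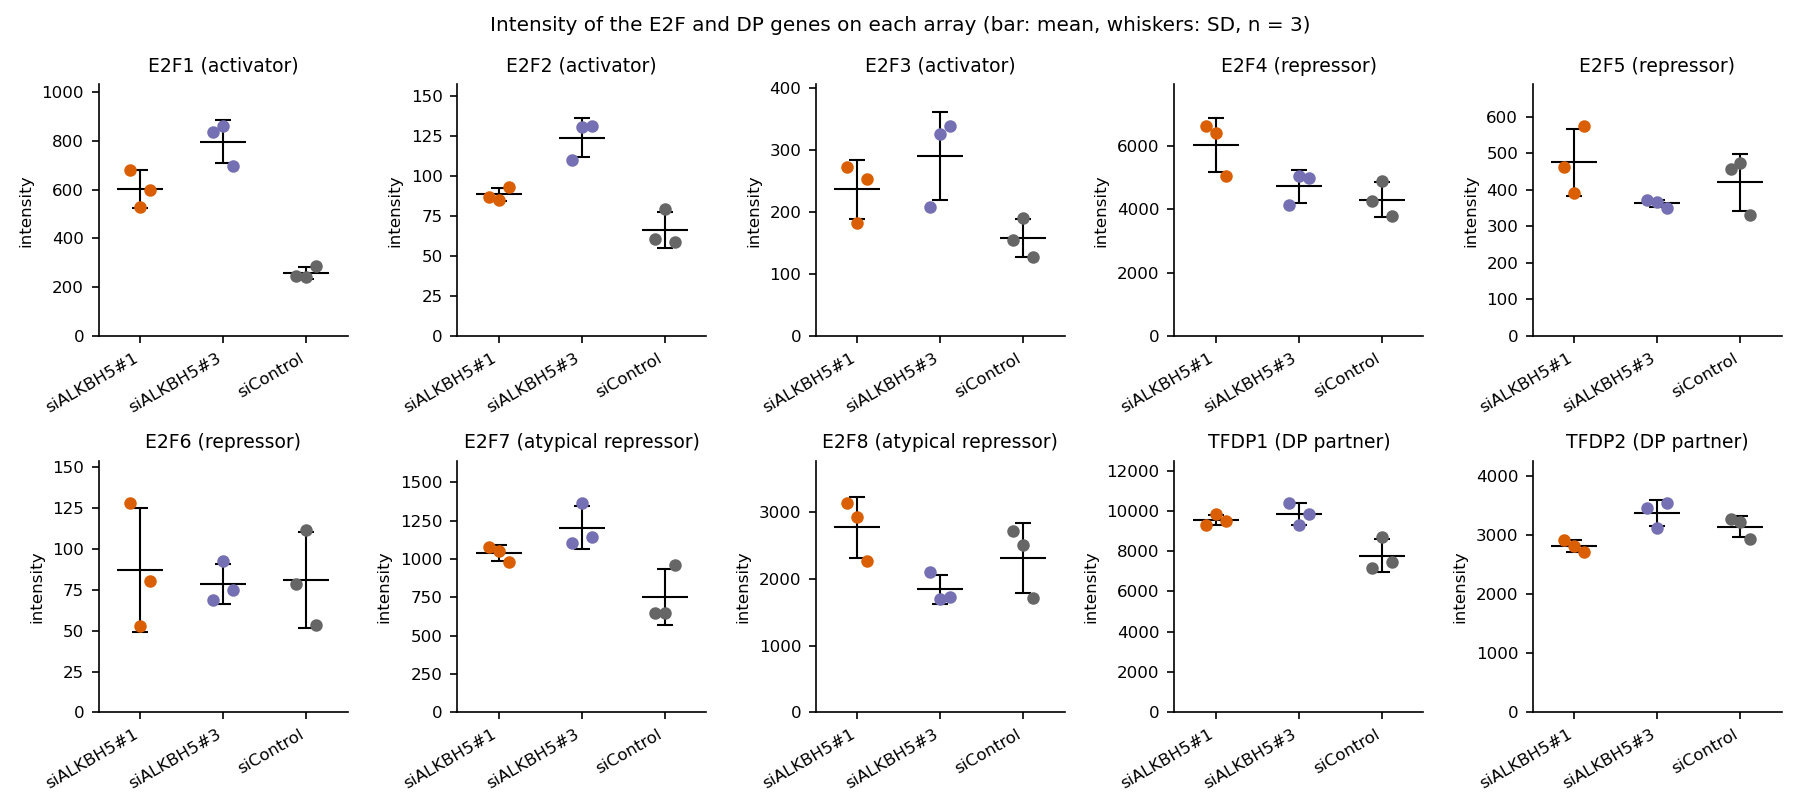
Intensity of each of the 10 genes (vertical axis, linear scale from 0) on the 3 arrays of siALKBH5#1, siALKBH5#3 and siControl. Points are arrays, horizontal bars are group means and whiskers are the SD. E2F1 was at 529 to 860 on the 6 knockdown arrays and at 242 to 288 on the siControl arrays, while E2F6 overlapped in all groups.

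E2F1, the activator best known for driving S phase genes and, when in excess, apoptosis genes, changed the most of the members with both siRNAs. Its cluster (GRCh38.p14 chr20:33675477-33686385) gave intensities of 681, 529 and 599 with siALKBH5#1 and of 838, 860.0 and 695 with siALKBH5#3, against 245, 242 and 288 with siControl. Every knockdown array lay above every siControl array, and the siALKBH5#3 arrays lay above those of siALKBH5#1. The means were 603 ± 76.4 with siALKBH5#1, 798 ± 89.3 with siALKBH5#3 and 258 ± 25.9 with siControl (SD, n = 3 each). E2F1 was 2.33-fold higher with siALKBH5#1 (95% interval 1.89 to 2.88, adjusted p = 0.000272) and 3.08-fold higher with siALKBH5#3 (95% interval 2.5 to 3.81, adjusted p = 2.83e-05) by limma. After Benjamini-Hochberg adjustment of the methods' t-test, the siALKBH5#1 change was not called (adjusted p = 0.0709).

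E2F2, an activator of the same class, gave 86.6, 85.1 and 93.2 with siALKBH5#1 and 110, 131 and 131 with siALKBH5#3, against 60.6, 79.0 and 58.6 with siControl. The 3 groups did not overlap, and siALKBH5#3 was the highest. The cluster (chr1:23505212-23531233) was dim, at percentiles 42.2 to 52.7 of its arrays. E2F2 was 1.35-fold higher with siALKBH5#1 (95% interval 1.09 to 1.67, limma, adjusted p = 0.0824), which was not called. The call was gained without siControl replicate 2, at an adjusted p of 0.0343. With siALKBH5#3 it was 1.88-fold higher (95% interval 1.53 to 2.33, adjusted p = 0.00105), a call that held without each array in turn and was lost by the methods' t-test after Benjamini-Hochberg (adjusted p = 0.0560).

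E2F3, the third activator, gave 273, 183 and 252 with siALKBH5#1 and 208, 325 and 338 with siALKBH5#3, against 155, 190 and 128 with siControl. Replicate 2 of siALKBH5#1 lay within the siControl range, whereas the siALKBH5#3 arrays all lay above it. E2F3 makes a long and a short protein from separate starts, and its cluster (chr6:20401879-20493714) gave 1 value for the gene. It was 1.49-fold higher with siALKBH5#1 (95% interval 1.07 to 2.08, limma, adjusted p = 0.130), which was not called, and 1.82-fold higher with siALKBH5#3 (95% interval 1.31 to 2.53, adjusted p = 0.0185). The siALKBH5#3 call was lost without siALKBH5#3 replicate 2 (adjusted p = 0.0752), siALKBH5#3 replicate 3 (0.0753), siControl replicate 1 (0.0514) or siControl replicate 3 (0.0614), and by the methods' t-test.

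Among the 5 repressor E2Fs, E2F7 alone was called against siControl, and only with siALKBH5#3. With siALKBH5#1, 0 of 5 repressors were called (limma), 2 were higher at an unadjusted p under 0.05 and the methods' t-test called 0. Their median log2 fold change was 0.28 with siALKBH5#1 and 0.01 with siALKBH5#3, beside 0.58 and 0.91 for the activators and -0.01 and -0.02 over all clusters.

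E2F4 and E2F5 are the canonical repressors, which act with RBL1 and RBL2 in resting cells. E2F4 (chr16:67192155-67198918) gave 6621, 6419 and 5051 with siALKBH5#1 and 4129, 5057 and 4983 with siALKBH5#3, against 4257, 4886 and 3780 with siControl. The siALKBH5#1 arrays lay above all siControl arrays and the siALKBH5#3 arrays overlapped them. The fold was 1.4 with siALKBH5#1 (95% interval 1.11 to 1.75, limma, adjusted p = 0.0706) and 1.10 with siALKBH5#3 (95% interval 0.876 to 1.38, adjusted p = 0.608), neither called. Without siALKBH5#1 replicate 3 the siALKBH5#1 change was called at an adjusted p of 0.0495, as it was without clusters below the median intensity and with an intensity trend in the variance model. E2F5 (chr8:85177154-85214518) gave 463, 391 and 573 with siALKBH5#1 and 372, 365 and 351 with siALKBH5#3, against 456, 474 and 331 with siControl. The siControl arrays spanned the whole siALKBH5#3 range, and the folds of 1.13 and 0.873 were not called (adjusted p = 0.574 and 0.492).

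E2F6, a repressor that lacks the pocket protein binding part and acts with Polycomb group proteins, gave 128, 53.0 and 80.2 with siALKBH5#1 and 68.6, 92.4 and 74.7 with siALKBH5#3, against 78.5, 111 and 53.2 with siControl. All groups overlapped. Its cluster (chr2:11444375-11466161) was dim, at percentiles 40.7 to 52.2, and had the widest error of the members, a standard error of 0.31 on the log2 scale. The 95% intervals of the fold ran from 0.663 to 1.68 with siALKBH5#1 and from 0.633 to 1.60 with siALKBH5#3, so changes within these bounds could not be told from none at this precision.

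E2F7 and E2F8 are the atypical repressors, which bind DNA without a DP partner and repress E2F1 and S phase genes. E2F7 (chr12:77021251-77065569) gave 1080.5, 1054 and 984 with siALKBH5#1 and 1103, 1366 and 1144 with siALKBH5#3, against 648, 651 and 963 with siControl. Every knockdown array lay above every siControl array, although siControl replicate 3 stood well above the other siControl arrays. E2F7 was 1.4-fold higher with siALKBH5#1 (95% interval 1.10 to 1.79, limma, adjusted p = 0.0885), which was not called, and 1.62-fold higher with siALKBH5#3 (95% interval 1.27 to 2.07, adjusted p = 0.0123). The siALKBH5#1 change was called without siControl replicate 3 (adjusted p = 0.0121). The siALKBH5#3 call was lost without siALKBH5#3 replicate 2 (adjusted p = 0.0571) or siControl replicate 1 (0.0501), and by the methods' t-test.

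E2F8 (chr11:19224063-19241655) gave 3142, 2926 and 2265 with siALKBH5#1 and 2099, 1697 and 1736 with siALKBH5#3, against 2715, 2509 and 1720.0 with siControl. Both knockdown groups overlapped siControl, from above with siALKBH5#1 and from below with siALKBH5#3. The fold was 1.21 with siALKBH5#1 (95% interval 0.915 to 1.60) and 0.808 with siALKBH5#3 (95% interval 0.610 to 1.07), neither called (limma, adjusted p = 0.411 and 0.303).

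TFDP1 and TFDP2 make the DP proteins that pair with E2F1 to E2F6. TFDP1 (chr13:113584688-113641473) gave 9312, 9828 and 9482 with siALKBH5#1 and 10394, 9310.1 and 9829 with siALKBH5#3, against 7180, 8692 and 7475 with siControl. All knockdown arrays lay above the siControl arrays. The fold was 1.23 with siALKBH5#1 (95% interval 1.03 to 1.47, limma, adjusted p = 0.145) and 1.27 with siALKBH5#3 (95% interval 1.06 to 1.51, adjusted p = 0.0686), neither called. The siALKBH5#3 change was called without siControl replicate 2 (adjusted p = 0.0432). TFDP2 (chr3:141944428-142149544) gave 2922, 2807 and 2707 with siALKBH5#1 and 3454, 3115 and 3540 with siALKBH5#3, against 3272, 3211 and 2932 with siControl. Its siALKBH5#1 arrays lay below all siControl arrays and its siALKBH5#3 arrays overlapped them, with folds of 0.896 and 1.07 that were not called (adjusted p = 0.442 and 0.604).

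**Figure D2:**
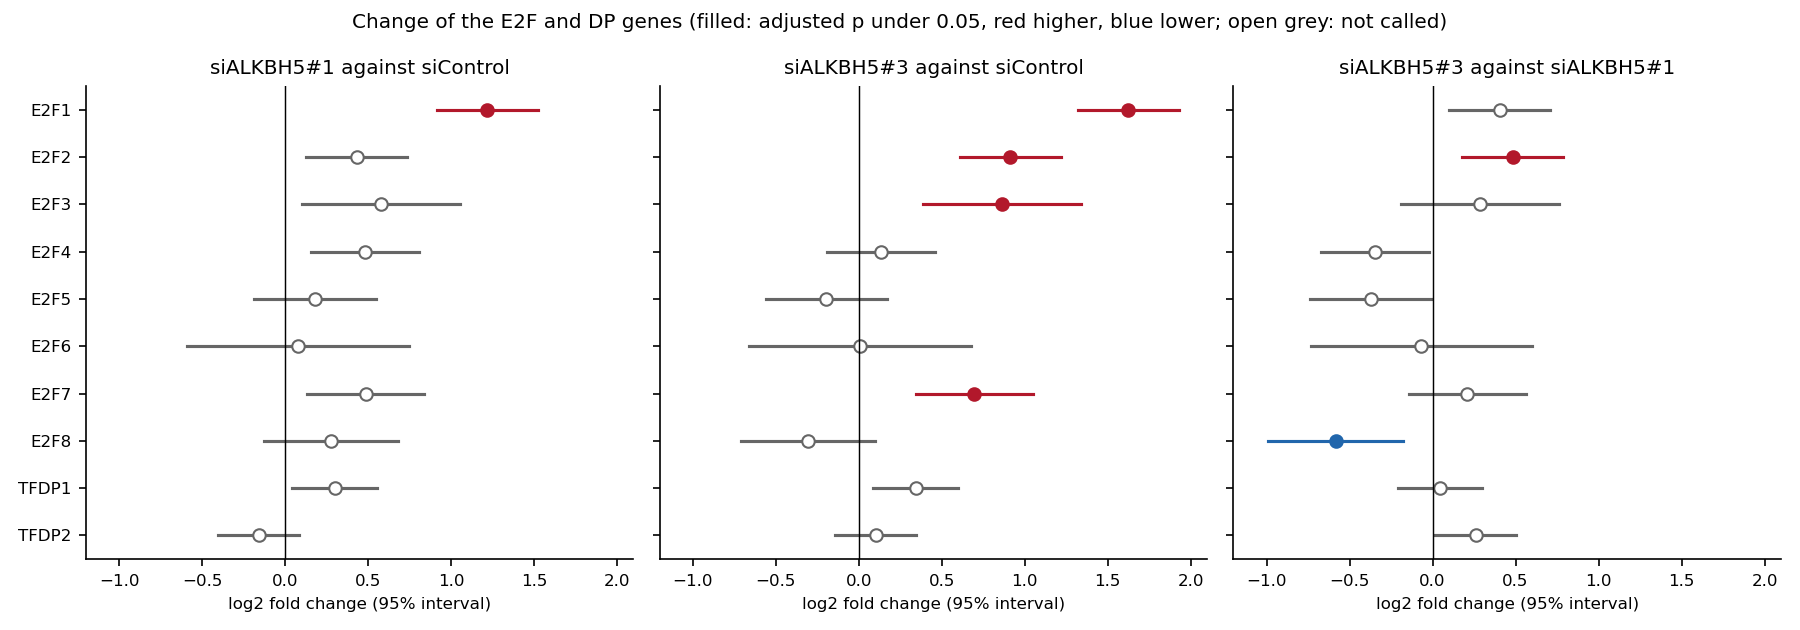
Log2 fold change of each gene (horizontal axis) with its 95% confidence interval from limma, for each siRNA against siControl and for siALKBH5#3 against siALKBH5#1. Filled points passed an adjusted p under 0.05: E2F1 at 1.22 in the first panel, E2F1, E2F2, E2F3 and E2F7 at 0.70 to 1.62 in the second, and E2F2 at 0.48 and E2F8 at -0.58 in the third.

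The direct comparison of the siRNAs gave 1 call in each direction, near the share over all clusters. Its fold rests on no siControl array, although these arrays enter its error. With siALKBH5#3 against siALKBH5#1, 1 of 10 members was called higher, against 9.55% of all clusters, and 1 was called lower, against 9.55%. At an unadjusted p under 0.05 the counts were 3 higher and 3 lower, against 15.0% and 14.9% of all clusters, and the methods' t-test called 0 each way, against 4.64% and 4.54%. E2F2 was the higher one, by 1.4-fold (95% interval 1.13 to 1.73, limma, adjusted p = 0.0298), and E2F8 the lower one, by 1.5-fold (95% interval 1.13 to 1.98, adjusted p = 0.0463). In neither gene did the arrays of the siRNAs overlap. E2F1 was 1.32-fold higher with siALKBH5#3 (95% interval 1.07 to 1.64, adjusted p = 0.0642), which was not called. Its call was gained without siALKBH5#1 replicate 1 (adjusted p = 0.04998) or siALKBH5#3 replicate 3 (0.0488).

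Both calls between the siRNAs were near the threshold. That of E2F2 was lost without siALKBH5#1 replicate 1, 2 or 3 (adjusted p = 0.0833, 0.0930 and 0.0511) and without siALKBH5#3 replicate 2 or 3 (0.104 and 0.102). That of E2F8 was lost without siALKBH5#1 replicate 1 or 2 (adjusted p = 0.156 and 0.135) and without siALKBH5#3 replicate 2 or 3 (0.143 and 0.133). The other members were not called in this comparison, among them E2F4 with a fold of 0.786 (adjusted p = 0.138), E2F5 with 0.772 (0.158) and TFDP2 with 1.2 (0.139). E2F3, with a fold of 1.22 (95% interval 0.877 to 1.69, adjusted p = 0.445), and E2F7, with 1.15 (95% interval 0.904 to 1.47, adjusted p = 0.457), were called with siALKBH5#3 alone against siControl, and their difference between the siRNAs was not called. E2F6 and TFDP1 had folds of 0.955 and 1.03 (adjusted p = 0.926 and 0.864).

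On the knockdown arrays the activators moved further than the repressors on average, although single genes of the classes overlapped with siALKBH5#1. There the log2 fold changes of the repressors E2F7 (0.49) and E2F4 (0.48) were above that of the activator E2F2 (0.43). For each array the log2 difference from the siControl mean was averaged over the 3 activators and over the 5 repressors, as a description with no test. The activators averaged 0.87, 0.55 and 0.81 on the siALKBH5#1 arrays and 0.95, 1.27 and 1.18 on the siALKBH5#3 arrays, against -0.06, 0.16 and -0.09 on the siControl arrays. The repressors averaged 0.50, 0.17 and 0.23 with siALKBH5#1 and 0.01, 0.15 and 0.03 with siALKBH5#3, against 0.04, 0.17 and -0.21 with siControl. The groups did not overlap in the activators, and in the repressors only siALKBH5#1 replicates 1 and 3 lay above all siControl arrays. The difference, activators minus repressors, was 0.37, 0.38 and 0.58 with siALKBH5#1 and 0.94, 1.11 and 1.15 with siALKBH5#3, against -0.10, -0.02 and 0.12 with siControl. Its mean was 0.44 with siALKBH5#1 and 1.07 with siALKBH5#3, and with the dim E2F6 left out it was 0.39 and 1.05. With E2F1 left out, which the study picked from these arrays, it was 0.20 and 0.82.

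**Figure D3:**
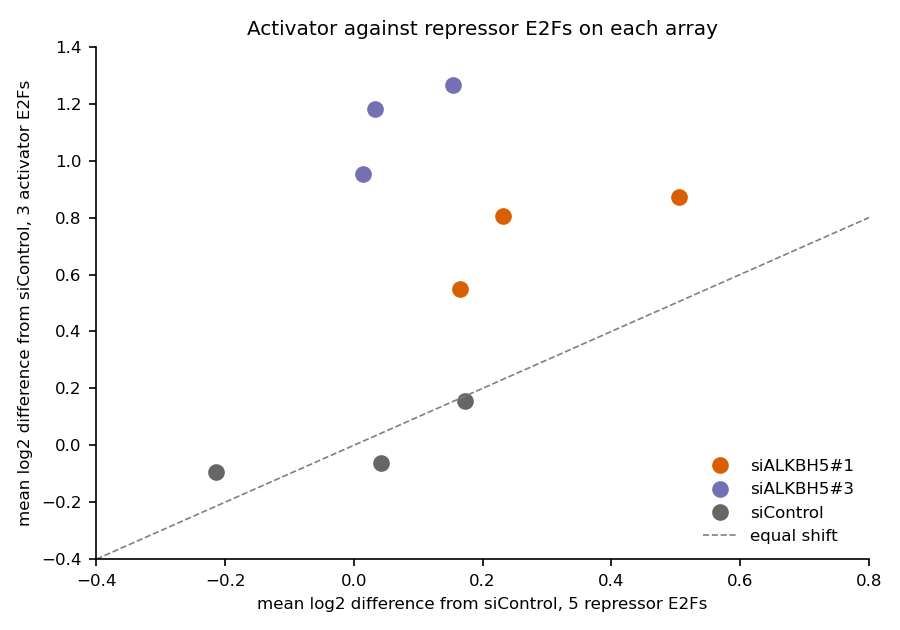
Mean log2 difference from the siControl mean over 3 activator E2Fs (vertical axis) against that over 5 repressor E2Fs (horizontal axis), 1 point per array; the dashed line marks an equal shift of both classes. The siALKBH5#3 arrays stand highest above the line, at 0.94 to 1.15, the siALKBH5#1 arrays at 0.37 to 0.58 and the siControl arrays at -0.10 to 0.12.

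Profiles over the 9 arrays, each centred on its siControl mean, were compared by their root mean square difference on the log2 scale, over 17708 other clusters with 1 gene symbol. The clusters nearest to E2F1 were SERPINB7 (0.19), QSOX2 (0.25), PYCR1 (0.26), THBD (0.28) and SLC7A1 (0.28), which include a proline synthesis enzyme (PYCR1) and a cationic amino acid transporter (SLC7A1). Among the members E2F2 came closest to E2F1, at rank 222 with a difference of 0.65, followed by E2F3 at rank 224 and E2F7 at rank 303. The clusters nearest to E2F2 were C8orf33 (0.06), FAM168B (0.10), CD99L2 (0.11), EZH2 (0.12) and THOC5 (0.12), of which EZH2 is the histone methyltransferase of Polycomb repressive complex 2. E2F3 was the member nearest to E2F2, at rank 94 with a difference of 0.20. The measure favours genes with changes of like size, and the arrays are those used in the tests.

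The regulators around the E2F proteins were examined in 8 lists with 92 measured genes. In the 8 lists together, 9 genes were called higher and 1 lower with siALKBH5#1, against 4.51% and 3.56% of all clusters. With siALKBH5#3, 22 were higher and 4 lower, against 8.72% and 7.04%. Between the siRNAs, 12 were higher and 11 lower with siALKBH5#3, against 9.55% each way. The same shares of all clusters are the background of each list.

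The pocket proteins and the MuvB complex, their partner in repressing cell cycle genes, were mostly not called. With siALKBH5#1, 1 of 10 was called higher, against 4.51% of all clusters, and 0 lower (limma; 0 lower also at an unadjusted p under 0.05 and by the methods' t-test), and with siALKBH5#3, 2 were higher, against 8.72%, and 0 lower (1 lower at an unadjusted p under 0.05, 0 by the methods' t-test). By the methods' t-test 0 were higher with either siRNA. The list median was 0.07 and 0.08 on the log2 scale. RBBP4, a histone binding subunit of MuvB, gave 3453, 3757 and 3896 with siALKBH5#1 and 2253, 2516 and 2113 with siALKBH5#3, against 2506, 2507 and 2480 with siControl. It was the one called with siALKBH5#1 (log2 fold change 0.57, adjusted p = 0.0107), and it was lower with siALKBH5#3 than with siALKBH5#1 (-0.69, adjusted p = 0.00110). With siALKBH5#3 the calls were MYBL2, the B-Myb factor that joins MuvB in S phase (0.44, adjusted p = 0.0218), and LIN9, a core subunit (0.48, adjusted p = 0.0426). FOXM1, which takes over from MYBL2 in G2, was not called with siALKBH5#1 (0.12, adjusted p = 0.574).

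The G1 cyclins and kinases, which phosphorylate the pocket proteins, held 2 of 10 genes called higher with siALKBH5#1, against 4.51% of all clusters, and 5 with siALKBH5#3, against 8.72%, and 0 lower in either (limma; 1 and 0 lower at an unadjusted p under 0.05, 0 and 0 by the methods' t-test). CCNE1, cyclin E1 and a classical E2F target, gave 1387, 1512 and 1697 with siALKBH5#1 and 1098, 1076 and 1078 with siALKBH5#3, against 506, 542 and 677 with siControl. Its log2 fold change was 1.42 with siALKBH5#1 (adjusted p = 7.01e-05) and 0.93 with siALKBH5#3 (adjusted p = 0.000804), and it was lower with siALKBH5#3 than with siALKBH5#1 by a log2 change of -0.49 (adjusted p = 0.0225). CCND3, cyclin D3, was higher with both, by 1.03 and 0.97 on the log2 scale (adjusted p = 0.000233 and 0.000207). CDC25A, the phosphatase that activates CDK2, gave 119, 99.8 and 110.0 with siALKBH5#1 and 261, 219 and 234 with siALKBH5#3, against 108, 86.0 and 93.0 with siControl. It stood out on the siALKBH5#3 arrays alone, with a log2 fold change of 1.31 against siControl (adjusted p = 6.23e-05) and 1.12 against siALKBH5#1 (adjusted p = 9.79e-05). CCNE2, cyclin E2, had the same order, with 1.00 against siControl (adjusted p = 0.00296) and 0.86 against siALKBH5#1 (adjusted p = 0.00535). The fifth call with siALKBH5#3 was CDK6, named after its value was seen. By the methods' t-test 2 genes of the list were higher with siALKBH5#1 and 3 with siALKBH5#3.

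Of the 6 measured CDK inhibitors, CDKN1A was called higher with both siRNAs and CDKN2A lower with siALKBH5#3. CDKN1A, which encodes p21, was also picked by the study from these arrays, so its direction on them is no independent evidence. Beyond the arrays, the study reports higher CDKN1A by qPCR and higher p21 by western blot in knockdown PC9 cells. On the arrays CDKN1A gave 924, 930.1 and 927 with siALKBH5#1 and 957, 1120.5 and 1072 with siALKBH5#3, against 597, 684 and 531 with siControl. The log2 fold change was 0.63 with siALKBH5#1 (adjusted p = 0.0102) and 0.80 with siALKBH5#3 (adjusted p = 0.00120). CDKN2A, the p16 and ARF locus, gave 24661, 22479 and 19321 with siALKBH5#1 and 6798.5, 6364 and 5497 with siALKBH5#3, against 22722, 15766 and 19052 with siControl. The siALKBH5#3 arrays lay far below all others, with a log2 fold change of -1.61 against siControl (adjusted p = 5.35e-05) and -1.83 against siALKBH5#1 (adjusted p = 9.06e-06).

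Among the replication targets of E2F, most of the measured genes were above siControl with siALKBH5#1. Of 33 genes for origin licensing and the replication fork, 4 were called higher with siALKBH5#1, against 4.51% of all clusters, and 0 lower. Their median log2 fold change was 0.31, and 31 of 33 were above 0, against 10317 of all 21448 clusters. At an unadjusted p under 0.05, 15 were higher, against 12.2% of all clusters, and 0 lower, and the methods' t-test called 0 either way. With siALKBH5#3, 2 were higher and 2 lower, against 8.72% and 7.04%. The median was 0.04, and 19 of 33 were above 0, against 10046 of 21448 clusters. By the methods' t-test 1 was higher and 1 lower with siALKBH5#3. With siALKBH5#3 against siALKBH5#1, 0 were called higher and 4 lower, against 9.55% each way, with a median of -0.30. At an unadjusted p under 0.05, 1 was higher and 16 lower, against 15.0% and 14.9% of all clusters, and the methods' t-test called 0 higher and 2 lower at its threshold and 6 lower after Benjamini-Hochberg. The 4 higher with siALKBH5#1 were CHAF1B (0.67, adjusted p = 0.0326), GINS3 (0.58, 0.0334), CDC45 (0.52, 0.0271) and RFC4 (0.50, 0.0186), of which GINS3 and CDC45 belong to the replicative helicase. CHAF1B, a subunit of the chromatin assembly factor that loads histones behind the fork, gave 2434, 2334 and 1777 with siALKBH5#1 and 617, 771 and 588 with siALKBH5#3, against 1652, 1255 and 1207 with siControl. It was called in opposite directions, higher with siALKBH5#1 and lower with siALKBH5#3 (-1.05, adjusted p = 0.00148), and it was lower between the siRNAs by -1.72 (adjusted p = 2.79e-05). Its partner CHAF1A was higher with siALKBH5#3 (0.59, adjusted p = 0.0138), as was CLSPN, the checkpoint mediator claspin (0.72, adjusted p = 0.0457), although 1 siALKBH5#3 array of CLSPN lay within the siControl range. MCM4, a helicase subunit, was lower with siALKBH5#3 (-0.45, adjusted p = 0.0309), and the helicase subunits MCM3 and MCM6 were lower with siALKBH5#3 than with siALKBH5#1 (-0.59 and -0.46, adjusted p = 0.00635 and 0.0245).

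Of 7 measured nucleotide synthesis targets, 0 were called with either siRNA (limma). At an unadjusted p under 0.05, 2 were higher with siALKBH5#1 and 1 was lower with siALKBH5#3, and the methods' t-test called 0 in both. TK1, thymidine kinase, gave 13737, 14649 and 15438 with siALKBH5#1 and 17714, 12929 and 13587 with siALKBH5#3, against 11874, 12417 and 14403 with siControl, and all groups overlapped. RRM2, the regulated subunit of ribonucleotide reductase, was lower with siALKBH5#3 than with siALKBH5#1 (-0.40, adjusted p = 0.0277).

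Of 6 measured apoptosis targets of E2F1, PMAIP1 was called higher and APAF1 lower with both siRNAs. The study lists qPCR primers for PMAIP1, and it lists APAF1 among the genes lower with both siRNAs on these arrays. Their directions here are thus no independent evidence. PMAIP1, the BH3 protein NOXA, gave 246, 283 and 264 with siALKBH5#1 and 294, 333 and 359 with siALKBH5#3, against 179, 147 and 148 with siControl, a log2 fold change of 0.75 and 1.06 (adjusted p = 0.00431 and 0.000244). APAF1, the scaffold of the apoptosome, gave 171, 138 and 183 with siALKBH5#1 and 93.2, 113 and 102 with siALKBH5#3, against 273, 336 and 310.4 with siControl, a log2 fold change of -0.91 and -1.58 (adjusted p = 0.00231 and 3.29e-05). In both genes no knockdown array reached the siControl range. TP73, a p53 family factor (0.89, adjusted p = 0.00857), and BCL2L11, the BH3 protein BIM (0.56, adjusted p = 0.0101), were called higher with siALKBH5#3. The TP73 cluster was dim, at percentiles 23.5 to 43.7 of its arrays. CASP8 was lower with siALKBH5#3 than with siALKBH5#1 (-0.61, adjusted p = 0.00357).

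Of 11 measured partners of E2F6 in its Polycomb complex, 7 were called higher with siALKBH5#3, against 8.72% of all clusters, and E2F6 itself was not called. With siALKBH5#3, 8 of 11 lay above 0, against 10046 of 21448 clusters, with a median log2 fold change of 0.54. The methods' t-test called only 2 higher in that comparison, against 3.79% of all clusters. In that comparison 0 were called lower (1 lower at an unadjusted p under 0.05, 0 by the methods' t-test). With siALKBH5#1, 0 were called (limma; 1 lower and 0 higher at an unadjusted p under 0.05, 0 by the methods' t-test), with a median of 0.04. Between the siRNAs 5 of 11 were higher with siALKBH5#3, against 9.55% of all clusters, and the methods' t-test called 1 higher. MGA, the large scaffold of the complex, gave 855, 695 and 958 with siALKBH5#1 and 1185, 1144 and 1287 with siALKBH5#3, against 776, 760 and 881 with siControl. The siALKBH5#3 arrays lay above all others, with a log2 fold change of 0.58 against siControl (adjusted p = 0.0132). PCGF6 (0.81, adjusted p = 0.0125), L3MBTL2 (0.66, 0.00750) and the histone methyltransferase EHMT1 (0.65, 0.00202) also had their siALKBH5#3 arrays above all others. The means of L3MBTL2 and EHMT1 were lowest with siALKBH5#1. CBX3 and MAX, the brightest of the list, were called neither with siALKBH5#1 (-0.34 and 0.12, adjusted p = 0.136 and 0.542) nor with siALKBH5#3 (-0.33 and -0.05, adjusted p = 0.105 and 0.819).

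Of 9 factors that degrade or modify E2F proteins, 0 were called with siALKBH5#1 (limma; 2 higher and 1 lower at an unadjusted p under 0.05, 0 by the methods' t-test) and 2 were higher with siALKBH5#3, against 8.72% of all clusters. These were SIRT1, a deacetylase (0.70, adjusted p = 0.00574), and EAPP, an E2F binding phosphoprotein (0.50, adjusted p = 0.0226). By the methods' t-test 1 of the list was higher with siALKBH5#3. EAPP was at 0.43 with siALKBH5#1 (adjusted p = 0.0705), with all arrays above siControl, and did not pass the test between the siRNAs (adjusted p = 0.777). SKP2, a ubiquitin ligase subunit that targets E2F1, gave 17873, 19220.1 and 18454 with siALKBH5#1 and 13559, 13944 and 12059 with siALKBH5#3, against 14830, 15860.2 and 14852 with siControl. It was lower with siALKBH5#3 than with siALKBH5#1 (-0.49, adjusted p = 0.00785), while the acetyltransferase KAT2B (0.87, 0.0452) and its cofactor TRRAP (0.62, 0.0188) were higher. KAT2B was dim, at percentiles 32.2 to 50.9 of its arrays. Against siControl KAT2B was at -0.80 with siALKBH5#1 and 0.07 with siALKBH5#3, and TRRAP at -0.34 and 0.28. None of these changes was called. CCNF, which marks E2F proteins for degradation, was not called with siALKBH5#1 (0.05, adjusted p = 0.850).

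**Figure D4:**
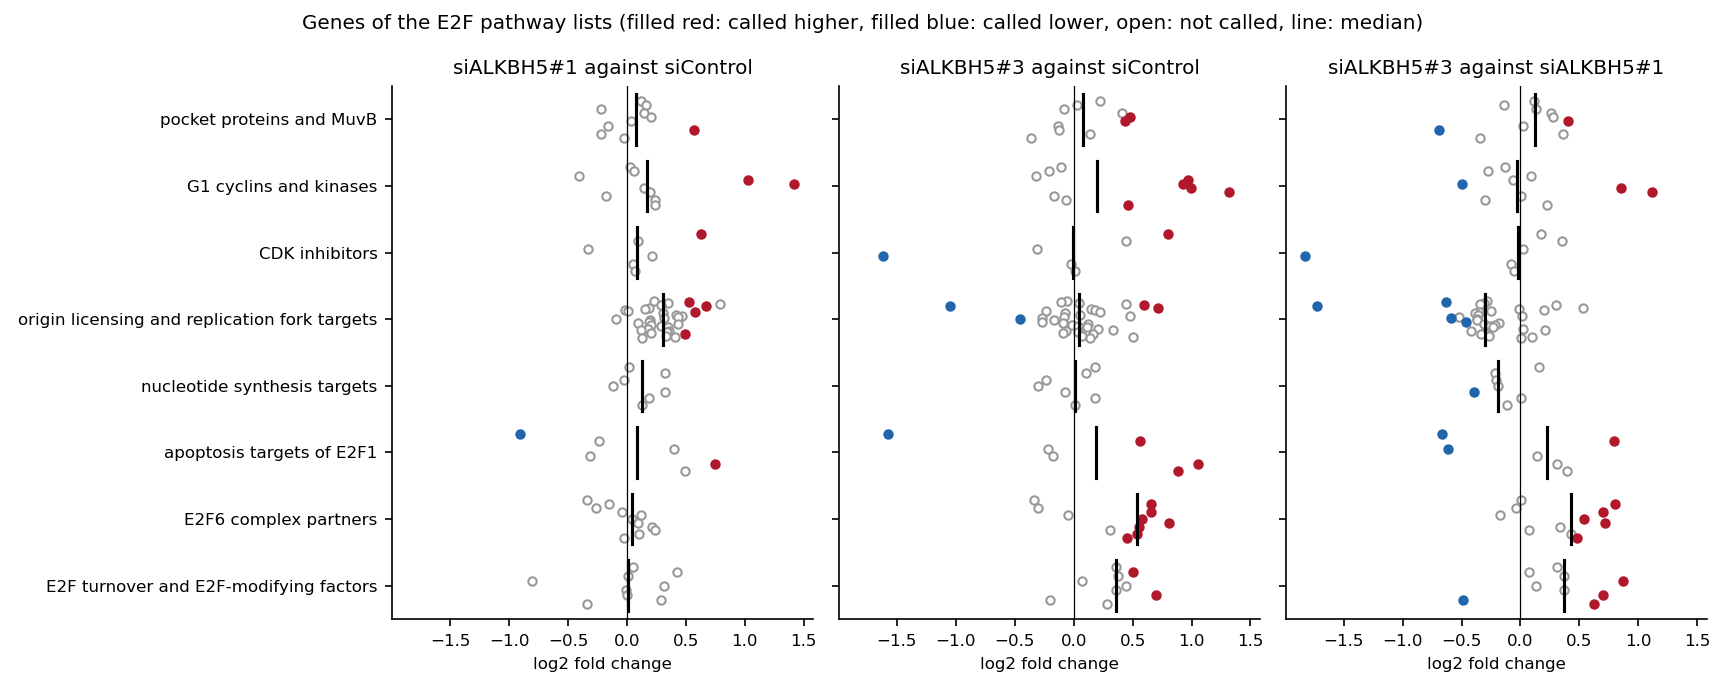
Log2 fold change (horizontal axis) of each gene of the 8 lists in the 3 comparisons, 1 point per gene, with the list median as a black line. The replication fork list sits above 0 with siALKBH5#1 (median 0.31) and near 0 with siALKBH5#3 (median 0.04), and the E2F6 partners sit above 0 with siALKBH5#3 (median 0.54).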

How the data were processed

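RNA from PC9 cells was measured on 9 Clariom S arrays, 3 each for siALKBH5#1, siALKBH5#3 and siControl, with groups and replicate numbers taken from the sample titles. The authors deposited linear RMA intensities, with 1 value for each transcript cluster on each array. The submitters' processing notes name RMA, Affymetrix Expression Console and hg38, whereas the methods name a tool of the array company, so the final step is not settled. RMA forces the arrays to a common distribution, so a change of total RNA per cell is not visible, and dim clusters show compressed folds. No detection calls were used.

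Of 24351 entries, 2903 control probe sets were left out. The log2 of the deposited intensities of 21448 clusters was taken with no pseudocount (lowest value 4.96) and no filter. Symbols came from the array annotation (17709 clusters with 1 symbol, 0 with several, 3739 with none) and were updated by Entrez ID through RefSeq GRCh38.p14, which gave the gene coordinates and promoters.

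With limma 3.58.1 in R 4.3.3, 1 mean per group was fitted to all 9 arrays, followed by two-sided moderated tests with 6 residual and 5.79 prior degrees of freedom, which limit the precision. Benjamini-Hochberg adjustment ran over all clusters, with calls at an adjusted p under 0.05. The fit was tested on simulated data. Alternatives were another quantile normalization, a filter on dim clusters, an intensity trend with a robust prior, a fit to 6 arrays, a replicate block, the methods' t-test, a fold minimum, leaving out each array and a looser motif.

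The members and gene lists were chosen with earlier results of these data known. Of the 98 pathway genes, 6 were not analysed here. The text names all members, ALKBH5, up to 4 called genes per list and comparison by size (with fewer than 2 called, also the 2 brightest), not all of which are printed, and the 5 clusters nearest to E2F1 and to E2F2, the other member with the largest called change.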

Additional observations from a re-analysis of the deposited data

Results flagged for a closer look

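E2F2 and E2F8 were the members called by the test of the difference between the siRNAs. That was 1 of 10 members each way, against 9.55% of all clusters each way. E2F2 kept its call in 4 of 13 alternative settings and E2F8 in 7 of 14. By the methods' t-test, or with a fold above 1.5 also required, neither was called. The effect of siALKBH5#3 minus that of siALKBH5#1 was 0.48 on the log2 scale for E2F2 (limma, adjusted p = 0.0298) and -0.58 for E2F8 (adjusted p = 0.0463). E2F2 was above siControl with both siRNAs, whereas E2F8 had a log2 fold change of -0.31 with siALKBH5#3 and of 0.28 with siALKBH5#1, neither called against siControl. ALKBH5 was itself lower with siALKBH5#3 than with siALKBH5#1, with a log2 fold change of -1.45, and the part of that difference in either result was not tested.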

How the results depend on the processing

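The number of members called changed with the variance model, the test and single arrays, and not with the scaling. With a second quantile normalization, a fit to the 6 arrays compared or the replicate block, the number of members called was the same in every comparison and direction. With the block, 1430 clusters were called for siALKBH5#1, 2994 for siALKBH5#3 and 3774 between the siRNAs, against 1731, 3381 and 4097 without it. Same-numbered arrays deviated from their group means with correlations of -0.15 to 0.12, so the numbers were not read as pairs.

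For siALKBH5#1 against siControl, 4 members were called higher with an intensity trend and robust prior, against 1500 of all 21448 clusters. Without clusters below the median intensity, which removed E2F2 and E2F6, 3 were called higher, against 1434 of 10724 clusters. The methods' t-test after Benjamini-Hochberg called 0, against 180 of 21448 clusters higher. For siALKBH5#3 against siControl, the methods' t-test called 2 higher at its threshold and 1 after adjustment, against 813 and 727 of 21448 clusters. Between the siRNAs, 0 were called higher and 0 lower by either form of the methods' t-test or with a fold above 1.5 also required. Over all 21448 clusters these settings called 996, 1280 and 1351 higher and 974, 1245 and 1336 lower. The trend model called 0 members higher and 2 lower, against 2474 and 2455 clusters. Leaving out 1 array gave 1 to 2 members higher for siALKBH5#1 and 2 to 5 for siALKBH5#3. Between the siRNAs it gave 0 to 1 higher and 0 to 1 lower. Over all 21448 clusters it gave 572 to 947 higher for siALKBH5#1 and 1269 to 1784 higher for siALKBH5#3. Between the siRNAs, 1530 to 1737 clusters were higher and 1528 to 1673 lower. The cause of these differences was not tested.

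Over all clusters, siALKBH5#1 gave 2604 calls with the trend model, 677 by the methods' t-test, 294 after its adjustment and 1037 to 1723 with 1 array left out. For siALKBH5#3 the counts were 2099 with the fold minimum, 1374 and 1234 by the methods' t-test before and after adjustment and 2320 to 3235 with 1 array left out. Between the siRNAs they were 2687, 1970 and 2525, and 3110 to 3381 with 1 array left out.

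E2F6 turned direction in every comparison, with adjusted p-values of 0.626 to 0.979. With siALKBH5#1 its log2 fold change was -0.25 without siALKBH5#1 replicate 1 and -0.20 without siControl replicate 3. With siALKBH5#3 it was -0.044 on the linear means of the methods' t-test, -0.11 without siALKBH5#3 replicate 2 and -0.26 without siControl replicate 3. Between the siRNAs it was 0.26 without siALKBH5#1 replicate 1 and 0.02 without siALKBH5#3 replicate 1. With 1 array left out it ranged from -0.25 to 0.39 for siALKBH5#1, from -0.26 to 0.27 for siALKBH5#3 and from -0.38 to 0.26 between the siRNAs. No other member turned.

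Activators minus repressors stayed above 0 in each setting run, at 0.38 to 0.50 for siALKBH5#1 and 1.02 to 1.13 for siALKBH5#3 with 1 array left out. Leaving out E2F6 or E2F1 was chosen after seeing the data, and without E2F1 the difference was 0.20 for siALKBH5#1, 0.82 for siALKBH5#3 and 0.62 between the siRNAs. The looser motif (TTNNCGC, both strands) was found in windows of 6 of 8 members and in 25.3% of all windows. E2F7, printed above as without the E2F site, had 2 looser matches in its window, whereas E2F4 had 0. No detection calls were used, so how far the dim clusters of E2F2 and E2F6 stood above background is not known here.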
